A study of Danio rerio with 8 samples.

Results

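Chemokines are small secreted proteins that steer migrating cells, and the genes for them and for their receptors were measured in the brains of *psap* KO zebrafish. The members were taken by a rule on names, every gene of the deposited comparison whose symbol starts with ccl, cxcl, ccr, cxcr or ackr and a number, or with xcr1. This gave 55 of the 22871 genes in the count table, 34 ligands and 21 receptors. RNA was sequenced from 4 pools of *psap* KO brains and 4 pools of WT sibling brains, each a pool of 3 brains from TuAB fish at 4 months post-fertilization (mpf). The *psap* KO fish (*psap*+63/+63) are homozygous for a CRISPR-Cas9 allele, a net insertion in exon 2 of prosaposin that came from a single founder line, and the study places a premature stop codon there. Fish of both genotypes were untreated, and both sexes were used. The study kept the genotypes in separate tanks after fin clipping, so genotype and tank cannot be told apart. It describes this age as the symptomatic end stage of disease in *psap* KO fish, so genotype and illness cannot be told apart either. The design asks how the loss of saposins, the lysosomal activator proteins cut from prosaposin, changes the transcripts of the brain.

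A chemokine binds a membrane receptor on a target cell, which couples to G proteins of the Gi class and turns the cell toward the source. Inflammatory chemokines are induced in injured or infected tissue and recruit leukocytes, whereas homeostatic chemokines are made constantly and place cells during development and in resting tissue. Atypical receptors, named Ackr, bind chemokines without this signal and remove them. In the brain, microglia and other macrophages, astroglia and vessel cells are known sources. Zebrafish carry many tandem copies of ligand genes, several with no direct mammalian counterpart, and a number after a point in a symbol often marks such a copy. Sequences of the genes were not used here.

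The libraries held 17562422 to 25127578 counts for *psap* KO and 15332163 to 23480758 counts for WT brains. Levels are given as CPM, the counts of a gene brought to a common library size, scaled with the trimmed mean of M-values (TMM), for libraries 1 to 4 of a genotype in that order. They are not divided by gene length, so they compare libraries and not genes. Fold changes are log2 of *psap* KO over WT from edgeR's quasi-likelihood test, with standard errors (SE) and p-values adjusted over 21140 genes, and a gene was called at an adjusted p under 0.05. *psap* itself had 415.5, 381, 403 and 450.4 CPM in *psap* KO libraries and 342, 370, 416 and 384 CPM in WT libraries, which overlapped. Its counts do not show which allele was transcribed, so they do not check the genotype labels. The study itself aligned RNA reads at the edited site in 4 mpf brains, and reports that *psap* KO transcripts carried the mutations. Neuron markers were abundant in every library, with 6217 to 6540 CPM summed over 24 genes in *psap* KO and 8878 to 9248 CPM in WT brains. In whole-brain pools, more cells of a type and more RNA per cell cannot be told apart.

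In *psap* KO brains 28 chemokine ligands and receptors were higher than in WT brains, and none was lower. Among ligands, 16 were higher and 6 were not called, and the other 12 had too few counts for the test. Among receptors, 12 were higher, 5 were not called and 4 had too few counts. Over all genes tested, 22.3% were higher and 18.5% were lower (40.8% in either direction). The median log2 fold change was 2.47 over the 22 ligands tested and 2.19 over the 17 receptors, and 0.020 over all genes. Of the tested members, 12 ligands and 9 receptors had a log2 fold change of at least 2, as did 3.86% of all genes tested. Every *psap* KO library was above every WT library in 16 of 22 ligands and 12 of 17 receptors tested, as in 21.9% of all genes tested. These were the 28 called members, picked from the same libraries, so the lack of overlap is no separate support for their calls. The exact two-sided permutation test of mean log2 CPM gave each of them p = 0.0286, the smallest that 4 libraries against 4 allow. That p follows from the lack of overlap. A gene can enter the test through its counts in *psap* KO brains alone, so these counts describe the members tested and do not stand for all members.

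Without a filter on low counts, all 55 members could be tested. Then 23 of 34 ligands and 14 of 21 receptors were higher, against 21.0% of all 22871 genes, and none was lower, against 17.2%. No member was lower at an unadjusted p under 0.05 with edgeR, with or without the filter, and none of the 22 ligands and 17 receptors that passed the filter was with DESeq2 or limma-voom.

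**Figure D1:**
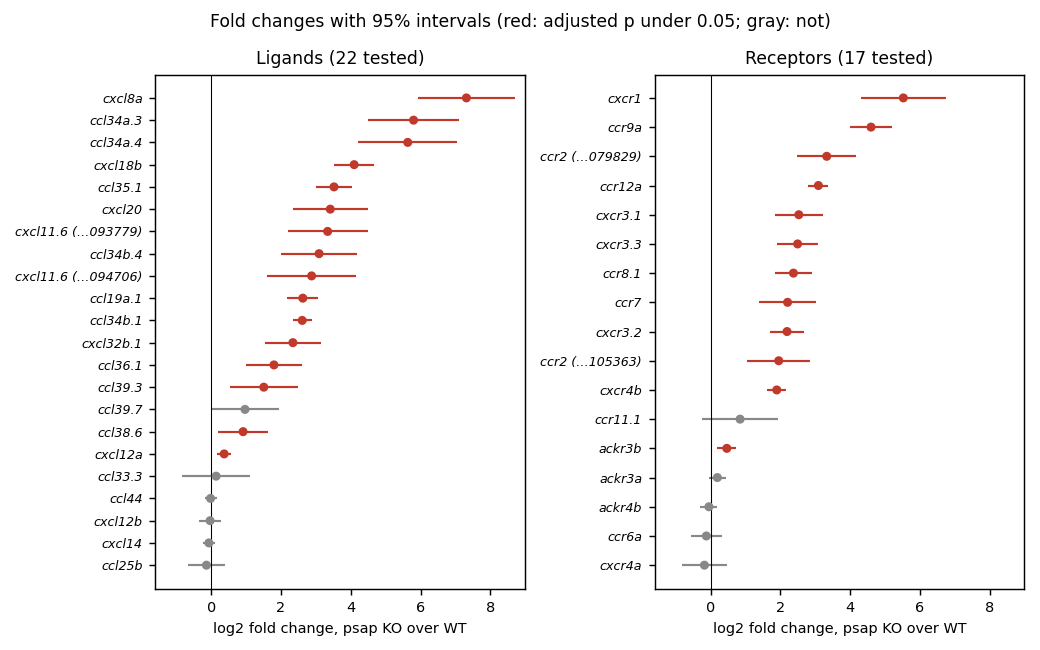
Log2 fold changes of psap KO over WT with 95% intervals for the 22 ligands (left) and 17 receptors (right) tested with edgeR, red where the adjusted p is under 0.05 and gray where it is not. The values run from -0.14 to 7.32 in ligands and from -0.18 to 5.53 in receptors, and the members in gray lie near 0 or have wide intervals.

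The largest rise of any ligand was that of *cxcl8a*, and another attractant of neutrophils, *cxcl18b*, rose too. *cxcl8a* encodes a homolog of interleukin-8, the classic neutrophil attractant. It was at 3.79, 1.80, 2.43 and 4.098 CPM in *psap* KO libraries, against 0, 0.0675, 0 and 0 CPM in WT libraries. A single WT library thus held any count of it, and each *psap* KO library was above it. The *psap* KO libraries held 266 counts and the WT libraries 1, a ratio of 236 after scaling (95% exact binomial interval 42.0 to 9363, counting error only). The fitted log2 fold change of 7.32 (SE 0.634, adjusted p = 2.73e-06) ranked number 3 of 21140 genes. It depends on the prior count where WT is this close to 0, and was 9.02 without WT replicate 2. *cxcl8a* (ENSDARG00000104795) was annotated on chromosome 1, plus strand, positions 14253118 to 14254166. The annotation carries no build name, and Zv10 is the build in the study's methods.

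*cxcl18b*, a fish chemokine that attracts neutrophils and is induced at sites of infection, had counts in every library. They came to 1241 in *psap* KO but only 66 in WT libraries. Its levels were 19.2, 11.7, 14.6 and 12.6 CPM in *psap* KO libraries and 0.864, 0.405, 0.704 and 1.30 CPM in WT libraries. The lowest *psap* KO library was at 11.7 CPM and the highest WT library at 1.30 CPM, with means of 14.5 ± 3.34 CPM in *psap* KO and 0.819 ± 0.374 CPM in WT brains (SD, n=4 each). The log2 fold change was 4.097 (SE 0.265, adjusted p = 3.90e-07). *cxcl8b.3*, another copy of the interleukin-8 homolog, had 18 counts in *psap* KO and 3 in WT libraries, too few for the test. Its libraries overlapped, and without a filter its adjusted p was 0.105.

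The *cxcl11* genes are homologs of the interferon-induced mammalian ligands of CXCR3, which attract T cells and, in zebrafish, macrophages. They are duplicated on chromosome 5, and 5 of them were measured. The gene named *cxcl11.6* with the ID ENSDARG00000093779 was at 2.28, 0.924, 0.875 and 1.84 CPM in *psap* KO and 0.162, 0.0675, 0.264 and 0.0465 CPM in WT libraries. Its log2 fold change was 3.34 (SE 0.529, adjusted p = 0.000312), and 3.92 without WT replicate 3. A shorter gene with the same symbol (ENSDARG00000094706) lies wholly inside it on the same strand and had 0.668, 0.484, 0.681 and 1.26 CPM in *psap* KO and 0.0540, 0, 0.176 and 0.140 CPM in WT libraries, a log2 fold change of 2.88 (SE 0.583, adjusted p = 0.00181). Each *psap* KO library was above each WT library for both genes, but they share 904 bases, and a separate table of gene names lists the first as *cxcl11.7*. The first also shares 925 bases on the same strand with *cenpv*, which was higher (log2 fold change 1.71, adjusted p = 0.00313). How the counting assigned reads from these genes is not given in the sources used here.

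The other copies had too few counts for the test. *cxcl11.5* had 87 counts in *psap* KO and 8 in WT libraries, at 1.61, 0.836, 0.340 and 1.23 CPM in *psap* KO and 0.162, 0, 0.132 and 0.0930 CPM in WT libraries. *cxcl11.1* had 38 counts in *psap* KO and 2 in WT libraries, and *cxcl11.8* had 26 in *psap* KO libraries and none in WT libraries. These 3 genes were above WT in every *psap* KO library. Set against 3 counts for the 4 WT libraries together, about the upper 95% limit for a count of 0 (counting error only), *cxcl11.8* was at least 7.69-fold higher. Without a filter the adjusted p was 0.00169 for *cxcl11.5*, 0.00397 for *cxcl11.1* and 0.0101 for *cxcl11.8*. *cxcl20*, which lies next to *cxcl11.1*, was at 1.503, 0.792, 2.14 and 2.80 CPM in *psap* KO and 0.108, 0.0675, 0.264 and 0.186 CPM in WT libraries (log2 fold change 3.41, SE 0.497, adjusted p = 0.000166).

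**Figure D2:**
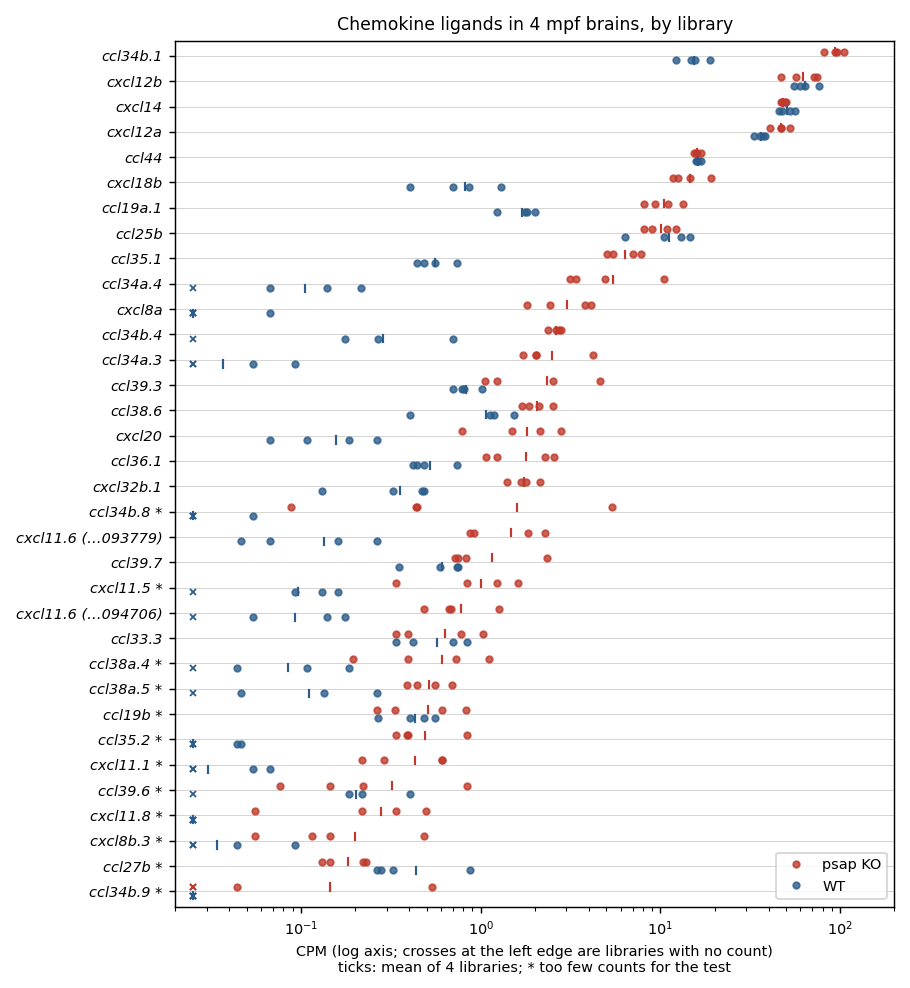
Levels of the 34 chemokine ligands in CPM on a log axis, by library, with psap KO in red above WT in blue for each gene, ticks at the means of 4 libraries, crosses at the left edge for libraries with no count and asterisks at genes with too few counts for the test. Red points lie to the right of all blue points for cxcl8a, cxcl18b and ccl34b.1, and red and blue overlap for cxcl12b, cxcl14, ccl44 and ccl25b.

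Among CC ligands, *ccl34b.1* was abundant in WT brains and rose further. In zebrafish it marks a population of microglia. Its levels were 81.7, 93.98, 96.1 and 104 CPM in *psap* KO and 12.3, 15.7, 14.8 and 18.9 CPM in WT libraries. The lowest *psap* KO library thus exceeded the highest WT library by a wide margin, and the spread within each genotype was small. The mean was 94.02 ± 9.37 CPM in *psap* KO and 15.4 ± 2.73 CPM in WT brains (SD, n=4 each), and the log2 fold change was 2.61 (SE 0.123, adjusted p = 3.53e-08), which is 6.10-fold. It was annotated on chromosome 24, minus strand, positions 27396989 to 27400630, followed by 3 further measured copies. Microglia and macrophage markers moved in the same direction, with 26 of 28 higher, against 22.3% of all genes tested. They summed to 3004 to 3665 CPM in *psap* KO and 594.5 to 710.1 CPM in WT libraries, and their part in the rise of *ccl34b.1* was not tested. *ccl34b.4* was at 2.78, 2.73, 2.62 and 2.37 CPM in *psap* KO and 0.270, 0, 0.176 and 0.698 CPM in WT libraries (log2 fold change 3.09, SE 0.496, adjusted p = 0.000384), and its log2 fold change was 3.99 without WT replicate 4.

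The remaining copies of this cluster were dominated by 1 library. *ccl34b.8* had 5.36 CPM in *psap* KO replicate 4, against 0.445, 0.088 and 0.438 CPM in the other *psap* KO libraries. The *psap* KO libraries held 159 counts of it and the WT libraries 1, a ratio of 141 after scaling (95% exact binomial interval 24.98 to 5611), and its adjusted p without a filter was 0.0274. *ccl34b.9* had 0.536 CPM in the same *psap* KO library and at most 0.044 CPM in the others, and no count in WT brains. Of its 15 counts in *psap* KO brains, 14 came from replicate 4, the genotypes overlapped, and it was not called without a filter (adjusted p = 0.123). *cxcl32b.1*, close to the same cluster but on the other strand, was at 1.78, 1.67, 1.41 and 2.14 CPM in *psap* KO and 0.486, 0.472, 0.132 and 0.326 CPM in WT libraries, a log2 fold change of 2.34 (SE 0.364, adjusted p = 0.000272).

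A pair of *ccl34a* copies on chromosome 2 was close to absent from WT brains. *ccl34a.4* was at 10.4, 3.12, 3.40 and 4.94 CPM in *psap* KO and 0.216, 0.0675, 0 and 0.140 CPM in WT libraries (log2 fold change 5.63, SE 0.642, adjusted p = 6.35e-05). *ccl34a.3* was at 4.23, 2.02, 2.04 and 1.72 CPM in *psap* KO and 0.0540, 0, 0 and 0.0930 CPM in WT libraries, with 209 counts in *psap* KO and 3 in WT libraries, a ratio of 61.9 after scaling (95% exact binomial interval 20.9 to 302.4). In both genes *psap* KO replicate 1 was the highest library. The fitted log2 fold change of *ccl34a.3* was 5.80 (SE 0.605, adjusted p = 1.25e-05), and 6.69 without WT replicate 4.

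Copies of *ccl35* and *ccl36* were higher in every *psap* KO library. *ccl35.1* was at 7.07, 5.02, 5.44 and 7.77 CPM in *psap* KO and 0.486, 0.742, 0.440 and 0.558 CPM in WT libraries (log2 fold change 3.52, SE 0.239, adjusted p = 3.87e-07). *ccl35.2* had 45 counts in *psap* KO and 2 in WT libraries, and was highest in *psap* KO replicate 4 (adjusted p = 0.00146 without a filter). The log2 fold change of *ccl36.1* was 1.80 (SE 0.369, adjusted p = 0.00196), with 2.28, 1.23, 1.07 and 2.57 CPM in *psap* KO and 0.486, 0.742, 0.440 and 0.419 CPM in WT libraries.

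The *ccl38* and *ccl39* genes were near the limits of the test. *ccl38.6* was at 2.12, 1.85, 1.70 and 2.53 CPM in *psap* KO and 1.13, 0.405, 1.19 and 1.53 CPM in WT libraries, a log2 fold change of 0.91 (SE 0.326, adjusted p = 0.0413). It lost its call without any library except WT replicate 4, with an adjusted p between 0.0507 and 0.0966. *ccl38a.4* (52 counts in *psap* KO and 7 in WT libraries) and *ccl38a.5* (46 in *psap* KO and 9 in WT libraries) lie wholly inside *ccl38.6* on the same strand, with adjusted p of 0.0131 and 0.0247 without a filter. *ccl39.3* was at 1.06, 1.23, 2.53 and 4.60 CPM in *psap* KO and 0.702, 0.810, 0.792 and 1.02 CPM in WT libraries, a log2 fold change of 1.51 (SE 0.445, adjusted p = 0.0175), and 0.94 without *psap* KO replicate 4, where it was not called. Its *psap* KO libraries 1 and 2 were close to the highest WT library, at 1.02 CPM. *ccl39.7* was not called (log2 fold change 0.97, SE 0.450, adjusted p = 0.107) and was high in *psap* KO replicate 4 alone, with 0.724, 0.748, 0.826 and 2.34 CPM in *psap* KO and 0.594, 0.742, 0.352 and 0.744 CPM in WT libraries. *ccl39.6* (28 counts in *psap* KO and 15 in WT libraries) and *ccl33.3* (57 in *psap* KO and 46 in WT libraries) overlapped between genotypes, and *ccl33.3* had a log2 fold change of 0.14 (SE 0.445, adjusted p = 0.831).

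Among homologs of CCL19, CCL25 and CCL27, which guide lymphocytes in mammals, *ccl19a.1* was higher and the others were not called. *ccl19a.1* encodes a homolog of CCL19, which draws T cells and dendritic cells to lymphoid tissue in mammals. It was at 11.02, 8.10, 9.33 and 13.4 CPM in *psap* KO and 2.00, 1.82, 1.23 and 1.77 CPM in WT libraries, a log2 fold change of 2.62 (SE 0.203, adjusted p = 1.07e-06). No WT library reached the lowest *psap* KO library. *ccl19a.1* shares 2832 bases on the same strand with *ccl19a.2*, which is not among the counted genes. The paralog *ccl19b* had 45 counts in *psap* KO and 34 in WT libraries, and its libraries overlapped. *ccl25b*, a homolog of the chemokine that attracts precursors to the thymus, was at 10.9, 8.10, 12.2 and 9.0 CPM in *psap* KO and 10.5, 12.96, 6.33 and 14.6 CPM in WT libraries. These overlapped, with a log2 fold change of -0.14 (95% interval -0.66 to 0.38, adjusted p = 0.674).

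*ccl27b*, a homolog of a mammalian skin chemokine for T cells, was the only member whose *psap* KO libraries all lay below the WT ones, as did 18.3% of all genes tested. It was at 0.223, 0.132, 0.146 and 0.230 CPM in *psap* KO and 0.324, 0.877, 0.264 and 0.279 CPM in WT libraries, from 16 counts in *psap* KO and 31 in WT brains. Its adjusted p without a filter was 0.132, so it was not called.

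Of the *cxcl12* genes, *cxcl12a* was higher and *cxcl12b* was not called. *cxcl12a* and *cxcl12b* encode the zebrafish homologs of CXCL12, which guides neuronal precursors, germ cells and leukocytes. *cxcl12a* was at 46.7, 46.7, 52.8 and 40.4 CPM in *psap* KO and 36.0, 32.9, 37.3 and 38.0 CPM in WT libraries, a log2 fold change of 0.37 (SE 0.0883, adjusted p = 0.00513). The genotypes did not overlap, and the rise was 1.29-fold. *cxcl12b* was at 47.0, 57.0, 71.2 and 73.9 CPM in *psap* KO and 76.5, 63.6, 55.5 and 59.9 CPM in WT libraries, which overlapped (log2 fold change -0.033, 95% interval -0.36 to 0.29, adjusted p = 0.878).

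*cxcl14*, a conserved chemokine expressed in brain and epithelia, was at 46.6, 47.2, 49.6 and 49.3 CPM in *psap* KO and 45.7, 47.2, 52.4 and 56.4 CPM in WT libraries. Its log2 fold change was -0.068 (95% interval -0.24 to 0.10, adjusted p = 0.523). *ccl44* was at 15.4, 15.7, 16.7 and 15.97 CPM in *psap* KO and 15.8, 16.7, 16.2 and 15.95 CPM in WT libraries. Of all members tested it had the smallest log2 fold change in size, -0.020 (95% interval -0.19 to 0.15, adjusted p = 0.865). A gene on the opposite strand covers all of *ccl44*, and the strand setting of the counting is not given in the sources used here. For *cxcl14* and *ccl44* the intervals exclude changes as large as that of *cxcl12a*.

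Among receptors, *cxcr1* had the largest rise. It encodes the receptor for Cxcl8 on neutrophils. It was at 3.51, 1.94, 1.51 and 3.71 CPM in *psap* KO and 0, 0.135, 0.0440 and 0.0465 CPM in WT libraries, with 235 counts in *psap* KO and 4 in WT libraries. The log2 fold change of 5.53 (SE 0.562, adjusted p = 1.02e-05) was 6.15 without WT replicate 2. Every *psap* KO library was above every WT library, as for the ligand *cxcl8a*. Neutrophil markers differed in part, with 7 of 10 higher, against 22.3% of all genes tested. However, *mpx*, which encodes the myeloperoxidase of neutrophil granules, had 1.74 CPM in *psap* KO and 1.43 CPM in WT brains (adjusted p = 0.422). Likewise *npsn*, a neutrophil protease gene, had 3.32 CPM in *psap* KO and 2.56 CPM in WT brains (adjusted p = 0.559). *cpa5*, on the same list, was not called (log2 fold change -1.19, adjusted p = 0.0558), and the largest change was that of *lect2l*, at 5.81. The 10 genes summed to 135 to 182 CPM in *psap* KO and 51.4 to 51.5 CPM in WT libraries, and their part in these results was not tested.

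The 3 *cxcr3* genes form a cluster on chromosome 16 and all rose. In zebrafish Cxcr3.2 is the receptor through which macrophages follow Cxcl11, and Cxcr3.3 is described as an atypical copy that takes up the ligand. *cxcr3.2* was at 9.02, 7.52, 9.87 and 9.34 CPM in *psap* KO and 2.16, 1.01, 1.76 and 2.74 CPM in WT libraries (log2 fold change 2.19, SE 0.229, adjusted p = 1.28e-05). *cxcr3.3* was at 32.2, 13.9, 16.7 and 16.6 CPM in *psap* KO and 3.24, 3.51, 3.43 and 3.81 CPM in WT libraries (log2 fold change 2.50, SE 0.263, adjusted p = 4.27e-05). The level in *psap* KO replicate 1 stood far above those of the other *psap* KO libraries, and the log2 fold change without it was 2.17. *cxcr3.1* was at 5.46, 4.09, 4.81 and 6.66 CPM in *psap* KO and 1.03, 0.337, 1.41 and 0.744 CPM in WT libraries (log2 fold change 2.53, SE 0.313, adjusted p = 4.79e-05).

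**Figure D3:**
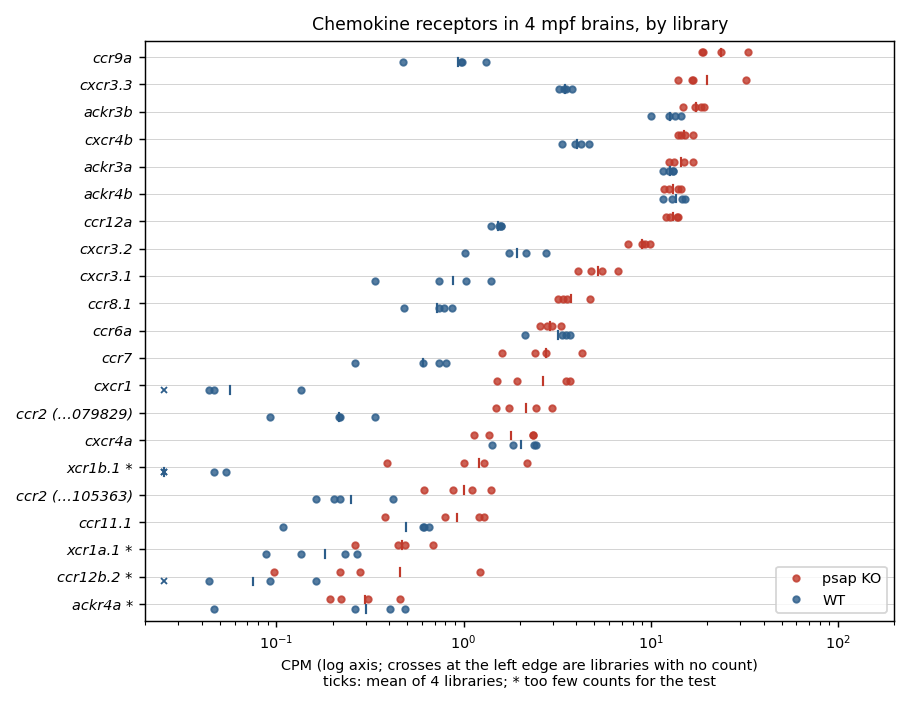
Levels of the 21 chemokine receptors in CPM on a log axis, by library, with psap KO in red above WT in blue for each gene, ticks at the means of 4 libraries, crosses at the left edge for libraries with no count and asterisks at genes with too few counts for the test. Red and blue points are far apart for ccr9a, ccr12a and cxcr4b, and overlap for ackr3a, ackr4b, ccr6a and cxcr4a.

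The receptor genes *ccr9a* and *ccr7* were higher. *ccr9a* encodes a homolog of CCR9, the receptor for CCL25. It was at 23.6, 18.7, 19.1 and 33.1 CPM in *psap* KO and 0.972, 0.472, 1.32 and 0.977 CPM in WT libraries, a log2 fold change of 4.60 (SE 0.270, adjusted p = 4.20e-07), which is 24.3-fold. The groups were far apart, whereas those of its ligand homolog *ccl25b* overlapped. *ccr7*, whose mammalian homolog is the receptor for CCL19, was at 1.61, 2.42, 2.77 and 4.29 CPM in *psap* KO and 0.810, 0.607, 0.264 and 0.744 CPM in WT libraries (log2 fold change 2.21, SE 0.380, adjusted p = 0.000575). It thus rose together with *ccl19a.1*. Of 15 T and NK cell markers tested, 10 were higher, led by *cd4-1*, a coreceptor gene of T cells, at 3.15, and 1 was lower. Over all genes tested, 22.3% were higher and 18.5% were lower. The T and NK markers summed to 93.99 to 116 CPM in *psap* KO and 80.7 to 97.1 CPM in WT libraries. The T and NK sums of the genotypes overlapped. The most abundant genes in them were *eomesa*, with means of 35.7 CPM in *psap* KO and 40.2 CPM in WT brains, and *gata3*, with 17.6 and 27.5 CPM. *eomesa* was not called and *gata3* was the marker called lower, so the sums hide the rise of the 10 markers called higher, which were less abundant. Whole-brain pools do not show which cells expressed *cd4-1*, *eomesa* and *gata3*, so their levels are no measure of T and NK cells alone. Of 3 B cell markers tested, 2 were higher, against 22.3% of all genes tested, led by *ighd*, an immunoglobulin heavy chain gene, at 4.73. *ighd* had means of 0.836 CPM in *psap* KO and 0.027 CPM in WT brains, so its fold change depends on the prior count. The marker not called was *pax5* (log2 fold change -0.18, adjusted p = 0.450). The 6 B cell markers counted summed to 8.85 to 13.4 CPM in *psap* KO and 4.18 to 6.65 CPM in WT libraries. Of the markers listed, 18 of 26 for T and NK cells and 6 of 9 for B cells were among the counted genes. The part of lymphocyte markers in the receptor results was not tested.

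Both genes named *ccr2* in the files and the gene *ccr8.1*, for receptors of CC ligands, were higher too. A gene named *ccr2* (ENSDARG00000079829), a homolog of the receptor that brings monocytes into inflamed tissue in mammals, was at 2.45, 1.76, 2.97 and 1.49 CPM in *psap* KO and 0.216, 0.337, 0.220 and 0.0930 CPM in WT libraries (log2 fold change 3.33, SE 0.392, adjusted p = 3.22e-05). A neighbor with the same symbol in the files (ENSDARG00000105363) was at 0.612, 0.880, 1.41 and 1.11 CPM in *psap* KO and 0.162, 0.202, 0.220 and 0.419 CPM in WT libraries, a log2 fold change of 1.96 (SE 0.415, adjusted p = 0.00244). A separate table of gene names lists this ID as a clone-based gene model and not as *ccr2*. Both lie on chromosome 16, and *ccr8.1* lies farther along it. *ccr8.1*, a homolog of a receptor of T cell subsets in mammals, was at 3.56, 3.39, 3.21 and 4.75 CPM in *psap* KO and 0.864, 0.742, 0.484 and 0.791 CPM in WT libraries (log2 fold change 2.38, SE 0.248, adjusted p = 1.27e-05).

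*ccr12a* was the member with the smallest adjusted p. It was at 13.9, 12.01, 12.6 and 13.9 CPM in *psap* KO and 1.40, 1.55, 1.58 and 1.58 CPM in WT libraries, and the libraries of each genotype lay close together. The log2 fold change was 3.09 (SE 0.130, adjusted p = 1.31e-08), which is 8.53-fold. *ccr12b.2* had 44 counts in *psap* KO and 6 in WT libraries, at 1.23 CPM in *psap* KO replicate 4 and 0.0972 to 0.278 CPM in the other *psap* KO libraries, against 0.162, 0, 0.0440 and 0.0930 CPM in WT libraries. The genotypes overlapped, and its adjusted p without a filter was 0.0459. *ccr11.1* was not called, with a log2 fold change of 0.85 (SE 0.4997, adjusted p = 0.200). The homologs of XCR1, a receptor of cross-presenting dendritic cells in mammals, had few counts: *xcr1b.1* had 111 in *psap* KO and 2 in WT libraries (adjusted p = 0.000204 without a filter), and *xcr1a.1* had 42 in *psap* KO and 14 in WT libraries (adjusted p = 0.0645 without a filter). By library, *xcr1b.1* was at 1.28, 1.01, 0.389 and 2.18 CPM in *psap* KO and 0.0540, 0, 0 and 0.0465 CPM in WT libraries. Its *psap* KO libraries were all above WT, whereas those of *xcr1a.1* overlapped with WT.

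*ccr6a*, a homolog of the mammalian receptor for CCL20, was not called, and its libraries overlapped. It was at 2.78, 2.55, 2.97 and 3.33 CPM in *psap* KO and 3.35, 3.71, 3.52 and 2.14 CPM in WT libraries, a log2 fold change of -0.12 (95% interval -0.57 to 0.33, adjusted p = 0.676).

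Of the receptors for Cxcl12, *cxcr4b* was higher and *cxcr4a* was not called. *cxcr4b*, a receptor for Cxcl12 that steers migrating primordia, axons and leukocytes in zebrafish, was at 14.5, 13.9, 15.3 and 16.8 CPM in *psap* KO and 3.35, 4.25, 3.91 and 4.70 CPM in WT libraries, a log2 fold change of 1.90 (SE 0.128, adjusted p = 3.74e-07). *cxcr4a* was at 2.34, 1.14, 1.36 and 2.34 CPM in *psap* KO and 2.43, 1.42, 1.85 and 2.37 CPM in WT libraries, which overlapped (log2 fold change -0.18, 95% interval -0.81 to 0.46, adjusted p = 0.667). *cxcr4b* lies wholly inside an unnamed gene model on the same strand, which had 121 counts in *psap* KO and 136 in WT libraries and was not called (log2 fold change -0.30, adjusted p = 0.395).

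Of the atypical receptors tested, *ackr3b* was higher, and *ackr3a* and *ackr4b* were not called. *ackr3b*, a scavenger of Cxcl12 and Cxcl11, was at 18.6, 14.8, 19.2 and 17.1 CPM in *psap* KO and 10.04, 13.5, 12.4 and 14.4 CPM in WT libraries, a log2 fold change of 0.47 (SE 0.124, adjusted p = 0.00960). It was higher in every *psap* KO library, by a margin of 14.8 against 14.4 CPM at the closest. Its paralog *ackr3a* was at 12.5, 13.3, 16.8 and 15.1 CPM in *psap* KO and 13.1, 12.6, 11.6 and 13.2 CPM in WT libraries (log2 fold change 0.19, 95% interval -0.043 to 0.43, adjusted p = 0.179). *ackr4b*, a homolog of the mammalian scavenger of CCL19, CCL21 and CCL25, was at 11.8, 14.5, 13.9 and 12.5 CPM in *psap* KO and 11.6, 13.03, 14.6 and 15.2 CPM in WT libraries. Its log2 fold change was -0.047 (95% interval -0.29 to 0.20, adjusted p = 0.772), and *acad11*, a gene that covers it on the opposite strand, was higher (log2 fold change 0.83, adjusted p = 0.00130). *ackr4a* had 27 counts in *psap* KO and 22 in WT libraries.

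Reads from copies of a gene may be split between them in ways that the sources do not state. The counts of 8 families, taken by the start of their symbols, were therefore also summed before the test. This alternative was chosen after the values were seen. Not every family is a tandem cluster, since *ccl35.1* and *ccl35.2* lie far apart on chromosome 25, on opposite strands. *cxcl11.8* also lies apart from the other *cxcl11* genes, on the other strand. All 8 families summed were higher, with groups that did not overlap. Each family held a gene already called higher on its own, with groups that did not overlap. The shares of all genes tested (22.3% higher, 21.9% without overlap) are therefore no fair comparison for the sums. The sums show only that these calls held when the copies were counted together. Most of the *ccl34b* sum came from *ccl34b.1*, and most of the *ccl35* sum from *ccl35.1*. Other paralogs, such as those of *cxcl12*, *cxcr4*, *ackr3*, *ackr4* and *ccl19*, were not summed. The *ccl34a* genes summed to 14.6, 5.15, 5.44 and 6.66 CPM in *psap* KO libraries and to 0.270, 0.0675, 0 and 0.233 CPM in WT libraries (log2 fold change 5.74, SE 0.609). The *cxcl11* genes summed to 5.23, 2.68, 2.53 and 5.44 CPM in *psap* KO and 0.432, 0.135, 0.572 and 0.279 CPM in WT libraries (log2 fold change 3.41, SE 0.401). The *ccl38* and *ccl39* families, whose single genes were near the limits of the test, had the smallest changes. The log2 fold changes were 3.57 for *ccl35*, 2.75 for *ccr2*, 2.65 for *ccl34b*, 2.42 for *cxcr3*, 1.30 for *ccl38* (adjusted p = 0.00542) and 1.24 for *ccl39* (adjusted p = 0.0163).

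**Figure D4:**
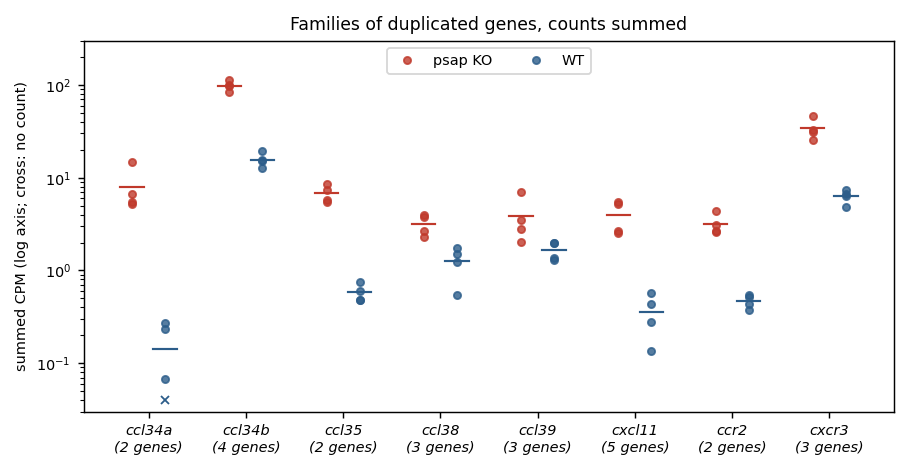
Summed levels in CPM on a log axis of 8 families of duplicated chemokine genes, with psap KO libraries in red left of WT libraries in blue, bars at the means and a cross for a library with no count. The psap KO libraries lie above all WT libraries in each family, far above for ccl34a and closest for ccl38 and ccl39.

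Paralogs were also set against each other within a library. The log2 ratio of their levels is given for 5 pairs as a description, with no test, since the pairs were chosen after the values were seen. The log2 ratio of *cxcr4b* to *cxcr4a* was 3.07 ± 0.446 in *psap* KO and 0.99 ± 0.440 in WT brains (SD, n=4 each). That of *ccl19a.1* to *ccl19b* was 4.20 ± 0.592 in *psap* KO and 1.79 ± 0.571 in WT brains, and that of *ackr3b* to *ackr3a* was 0.27 ± 0.195 in *psap* KO and -0.012 ± 0.247 in WT brains. In these 3 pairs the libraries of the genotypes did not overlap. They overlapped for *cxcl12a* over *cxcl12b*, with -0.40 ± 0.358 in *psap* KO and -0.81 ± 0.243 in WT brains, and for *cxcr3.3* over *cxcr3.2*, with 1.07 ± 0.506 in *psap* KO and 0.91 ± 0.562 in WT brains.

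The *psap* KO libraries differed among themselves. *psap* KO replicate 4 was the highest of the 4 in 17 of the 28 called members (60.7%), against 43.8% of the 4720 genes called higher over the whole table. *psap* KO replicate 2 was highest in none of the 28, against 10.6% of those 4720 genes. The same *psap* KO replicate 4 had the largest summed levels of microglia and macrophage, neutrophil, T and NK cell, and endothelial and lymphatic markers and of the genes of chemokine receptor signaling, whereas B cell markers were highest in *psap* KO replicate 1 and radial astroglia and meningeal markers in *psap* KO replicate 3. Their part in this was not tested. *psap* KO replicate 1 stood highest for *ccl34a.3*, *ccl34a.4*, *cxcr3.3* and *cxcl18b*. Of the 28 calls, 26 to 28 held without any 1 library, and those lost were *ccl38.6* and *ccl39.3*.

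**Figure D5:**
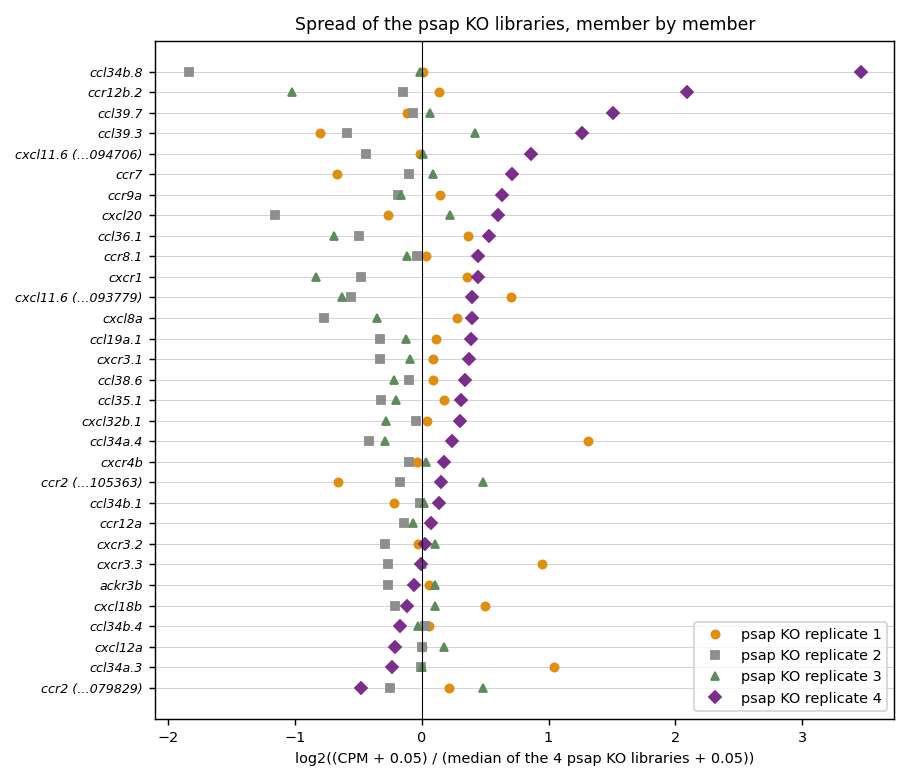
Level of each called member, and of 3 further genes that stood high in 1 library (ccl34b.8, ccr12b.2 and ccl39.7), in the 4 psap KO libraries, as log2 of CPM plus 0.05 over the median of these libraries plus 0.05. Replicate 4 (purple) lies far to the right for the genes at the top, and replicate 1 (orange) for ccl34a.3, ccl34a.4 and cxcr3.3.

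Genes listed for chemokine receptor signaling and related receptors moved in both directions. A list of G protein subunits, kinases, arrestins, regulators of G protein signaling and related chemoattractant receptors held 47 tested genes, of which 25 were higher, 8 were lower and 14 were not called, against 22.3% higher and 18.5% lower over all genes tested. The median log2 fold change was 0.43. *cmklr1*, the receptor for the chemoattractant chemerin, had 38.9 ± 6.37 CPM in *psap* KO and 3.66 ± 0.480 CPM in WT brains (SD, n=4 each), and the log2 fold change was 3.40. *hck*, a Src-family kinase of myeloid cells, *arpc1b*, a subunit of the Arp2/3 complex that builds actin networks, and *stat3*, a transcription factor activated by cytokines, had log2 fold changes of 2.58, 2.30 and 1.92. The 4 with the smallest p among those that fell were *rgs3a*, a brake on G protein signaling, at -0.63, *gnai2b*, a Gi subunit gene, at -0.33, and the arrestin genes *arrb2b* and *arrb1* at -0.30 and -0.27. The paralog *gnai2a* was higher, at 0.55.

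The lists of cell type markers differed in direction. Over all genes tested, 22.3% were higher and 18.5% were lower. Of 28 microglia and macrophage markers, 26 were higher and none was lower, with a median log2 fold change of 2.26, close to those of the ligands and receptors tested. They summed to 3004 to 3665 CPM in *psap* KO and 594.5 to 710.1 CPM in WT libraries, and the largest change was in *marco*, a scavenger receptor gene, with a log2 fold change of 4.20. Of 14 radial astroglia markers, 10 were higher and 1 was lower, led by *gfap*, an intermediate filament gene, with a log2 fold change of 2.03, and they summed to 5101 to 6209 CPM in *psap* KO and 3808 to 4515 CPM in WT libraries. Of 23 endothelial and lymphatic markers, 8 were higher and none was lower, with sums of 604 to 690.5 CPM in *psap* KO and 487 to 541 CPM in WT libraries. The largest fold change there, 2.48 for *lyve1a*, was not called (adjusted p = 0.107). Of 24 neuron markers, 21 were lower and 2 were higher, led by *nefla*, a neurofilament gene, at -1.95. Oligodendrocyte markers were split, with 7 higher and 2 lower, among them *mbpa*, a myelin protein gene, at -2.29. Their sums were 2729 to 4891 CPM in *psap* KO and 7495 to 9346 CPM in WT libraries. *mbpa* alone had means of 1293 CPM in *psap* KO and 6323 CPM in WT brains, so the lower sums reflect this gene and not the list as a whole. Of 14 meningeal markers, 6 were higher and 4 were lower, led by *ptgdsb.1* at 1.31, with sums of 279 to 356.5 CPM in *psap* KO and 216 to 278 CPM in WT libraries. The 4 lower ones were the collagen genes *col1a2* (-1.19), *col1a1a* (-1.15), *col1a1b* (-0.95) and *col5a1* (-0.50). *ptgdsb.1* alone had means of 110 CPM in *psap* KO and 44.2 CPM in WT brains, so the higher sums do not reflect the list as a whole. Skeletal muscle markers summed to 30.1 to 56.3 CPM in *psap* KO and 77.1 to 806.5 CPM in WT libraries, highest in WT replicate 1, and *ttn.1*, the titin gene, was the marker called lower, at -4.12. No gene in the deposited counts was at 0 in all libraries, so a marker without any count could not appear here. Of the neutrophil markers listed, 10 of 13 were among the counted genes. The part of all these markers in the chemokine results was not tested.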

How the data were processed

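Total RNA of 8 pools of 3 zebrafish brains was depleted of ribosomal RNA, made into stranded libraries and sequenced. Optical duplicates and adapters (cutadapt 1.16) were removed by the authors, who aligned reads with STAR 2.6.1b and counted them per gene with featureCounts 1.6.3. The strand setting and the treatment of reads that map to several genes are not given in the sources used here. The values used are the deposited raw counts of 22871 genes. The authors' comparison columns (fold changes and p-values from DESeq2 1.22.2), normalized counts, regularized logarithms and summary were not used, and 0 count columns were left unmatched to a sample. Symbols and positions came from the deposited annotation, in which 78 genes match the naming rule. Those beyond the 55 with counts were not analysed here.

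Genotypes were compared with edgeR 4.0.16 under R 4.3.3, with TMM scaling, filterByExpr by genotype (1731 genes left out) and a robust quasi-likelihood fit, with Benjamini-Hochberg adjustment over 21140 genes. Permutation tests used log2 CPM with a prior count of 2. Intervals of count ratios are exact binomial at 95% and cover counting error only. Alternatives were DESeq2's size factors (RLE), upper-quartile scaling, no filter, a filter on genes under a mean count of 50, limma-voom (limma 3.58.1), DESeq2 1.42.0, a term for the replicate number, each library left out, and, added after the data were seen, duplicated genes summed. The fit was tested on simulated data.

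Members were all named, and their values were given by library where they passed the test, exceeded 1 CPM in a genotype or were partners of such a gene. Of the signaling list, the 4 genes with the smallest p in each direction were named, and of marker lists the gene with the largest change. *gnai2a*, *mpx*, *npsn*, *cpa5*, *eomesa*, *gata3*, *pax5*, *col1a2*, *col1a1a*, *col1a1b* and *col5a1* were named after their values were seen. The naming rule for the members uses no measured value, but it and the lists were chosen with earlier results of these data known. Replicates are separate pools, so p-values measure the spread between pools. Libraries of a genotype were further apart than counting noise allows (5.12 to 28.8 in chi-square per degree of freedom), and each was counted as its own sample.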

Additional observations from a re-analysis of the deposited data

Results flagged for a closer look

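Of 110 groups of 4 libraries (55 members in 2 genotypes), 11 held a library that stood apart from the other 3 by Dixon's test at 95%. By chance this test flags about 1 in 20 groups of normally distributed values. The rate does not hold for low counts, where a lone count beside zeros is always flagged, so the 11 cannot be set against it. *psap* KO replicate 4 accounted for 5 of the 11. It had 5.36 CPM of *ccl34b.8* (0.088 to 0.445 CPM in the other *psap* KO libraries), 0.536 CPM of *ccl34b.9* (0 to 0.044 CPM), 0.843 CPM of *ccl35.2* (0.340 to 0.396 CPM), 2.34 CPM of *ccl39.7* (0.724 to 0.826 CPM) and 1.23 CPM of *ccr12b.2* (0.0972 to 0.278 CPM). *psap* KO replicate 1 had 4.23 CPM of *ccl34a.3* (1.72 to 2.04 CPM) and 32.2 CPM of *cxcr3.3* (13.9 to 16.7 CPM). Among WT libraries, replicate 1 had 0.108 CPM of *ccr11.1* (0.607 to 0.651 CPM in the others) and replicate 2 had 0.877 CPM of *ccl27b* (0.264 to 0.324 CPM). For *ccl34b.8* and *cxcl8a* a lone count set a WT library apart, at 0.054 CPM in WT replicate 1 and 0.0675 CPM in WT replicate 2, with no count in the others.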

How the results depend on the processing

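Low counts set the main limit. With a filter at a mean count of 50, 10 ligands and 10 receptors were tested, and 6 ligands and 7 receptors were higher. In all other alternatives the counts of called members stayed within 1.5 times the main ones, with 14 to 17 ligands and 12 to 13 receptors higher when a library was left out, and none lower. No scaling moved the median of all genes by more than 0.032 on the log2 scale. With the replicate number as a term (replicate block), 16 ligands and 12 receptors were higher, and every member kept its call. Over all genes, 4908 were higher and 4429 lower with this term, against 4720 and 3903 without it. The correlations of same-numbered libraries were 0.0575, 0.0705, 0.133 and 0.167, and 2 of 4 numbers correlated best with their own. So few pairs cannot decide whether the numbers pair the samples. Weaker calls under an alternative were those of *ccl38.6* without 7 of the libraries and of *ccl39.3* in limma-voom (log2 fold change 1.30, adjusted p = 0.0628), without *psap* KO replicate 4 and without WT replicate 1. The sign of members that were not called turned in some alternatives. *ccl44* was at 0.012 with upper-quartile scaling and 0.0036 with the filter at 50. With a library left out, log2 fold changes ranged from -0.12 to 0.0030 for *ackr4b*, from -0.34 to 0.020 for *ccl25b*, from -0.23 to 0.39 for *ccl33.3* and from -0.13 to 0.079 for *cxcl12b*. The cause was not tested.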
